A study of Caenorhabditis elegans with 4 samples.

Results

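The regions described here are the 920 binding regions of HAM-1 that lie on the X chromosome of Caenorhabditis elegans, out of 5713 in the combined list deposited by the authors. They were taken by chromosome name alone, so no measured value entered the choice. Regions were mapped by chromatin immunoprecipitation followed by sequencing (ChIP-seq) in fed L1 hermaphrodite larvae of the strain OP102, grown at 20 °C on HB101 bacteria. The strain has the ed3 mutation of unc-119 and the transgene wgIs102, in which ham-1 is joined to TY1, EGFP and FLAG tags and unc-119(+) serves for rescue. There were 2 HAM-1 ChIP libraries, collected with anti-GFP antibody, and 2 input libraries of chromatin kept back before that step, and all 4 libraries carry the same mutation and the same transgene. The transgene came from biolistic transformation, per the labels, and the protocol lyses entire larvae, so a region can come from any cell that makes the tagged protein. Each ChIP replicate has its own list of regions. On X replicate 1 held 753 of its 4749 regions and replicate 2 held 368 of its 2247. Nothing in the labels says that the replicates were separate cultures, the lists give no read counts, and sequencing depth is therefore unknown.

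HAM-1 is a winged-helix protein of the nucleus and cell cortex that is needed for the asymmetric division of several neuroblasts, and its name refers to the abnormal migration of the HSN neurons in mutants. C. elegans hermaphrodites carry a pair of X chromosomes, on which the dosage compensation complex, a condensin-like machine, lowers transcription. The X chromosome is poor in genes used in the germline. Autosomes have centres with little recombination and arms with more, and this division is weaker on X.

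A region is a stretch of the WormBase WS220 genome with its limits and a q-value, the false discovery rate that the authors' caller, PeakSeq, gave it. All positions below are on WS220. A lower q-value stands for a stronger call within a list. Regions are treated below as independent in the exact tests, which neighbours on a chromosome are not. The main X value of each test is therefore also set beside single autosomes. The p-values describe region lists from a single pair of ChIP libraries. They were adjusted by the Benjamini-Hochberg method over 8 tests.

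In the combined list, counts of HAM-1 regions varied less along X than along any autosome, a difference in spread that was not tested. In bins of 1 Mb numbered from the left end, the 17 whole bins of X held from 36 to 77 combined regions with a median of 55. The 80 whole bins of the autosomes held from 13 to 110 with a median of 59. The standard deviation between bins was 19.0% of the mean on X and 35.1% over the pooled autosomes, and on single autosomes it ran from 25.4% on IV to 43.6% on V. It was 19.4% on X and 36.1% on the pooled autosomes in replicate 1, and 22.96% and 43.99% in replicate 2. Neither extreme of the genome was on X, since 12 autosomal bins held more regions than the fullest X bin and 14 held fewer than the emptiest. Of the 17 X bins 4 fell below the lower quartile of autosomal bins (44.75 regions), near the share that a lower quartile cuts off by definition. On the other side 2 lay above the autosomal median and 1 above the upper quartile (73).

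**Figure D1:**
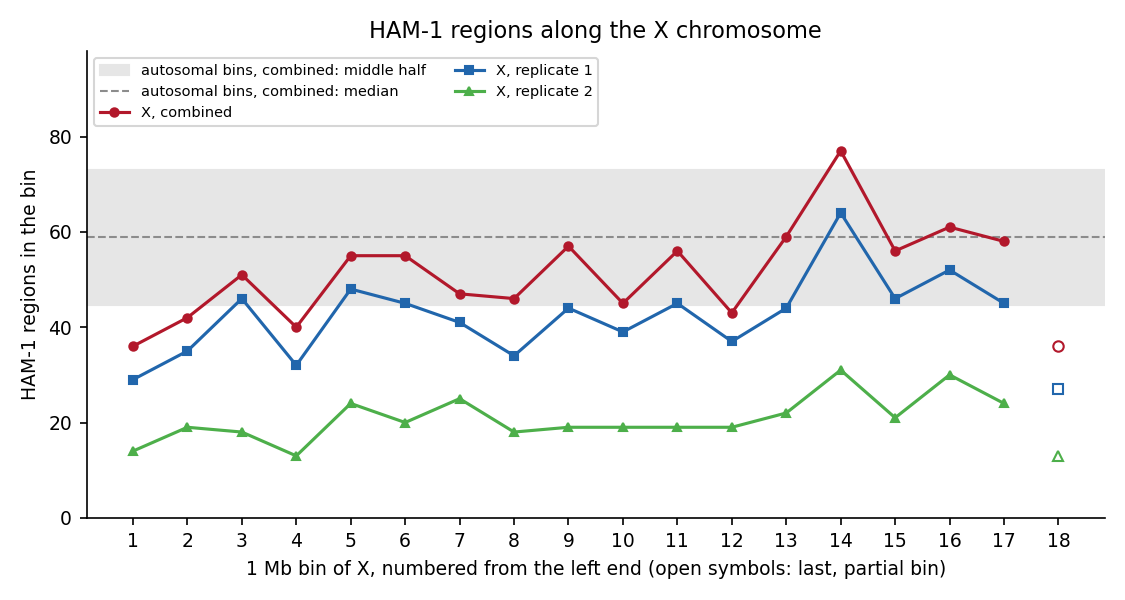
Number of HAM-1 regions (vertical axis) in each 1 Mb bin of X (horizontal axis) in the combined list and in both replicates, with the median and the middle of the distribution (lower to upper quartile) of autosomal combined bins. Combined counts on X lie between 36 and 77, the fullest bin is number 14, and the open symbols are the last bin of 0.715 Mb.

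The fullest stretch of X was bin 14, from 13000001 to 14000000. It held 77 combined regions, and the replicates had 64 and 31 there, the highest X count in each list. Bin 16, from 15000001 to 16000000, held 61, 52 and 30 regions in the same order, and bin 13, from 12000001 to 13000000, held 59, 44 and 22. The emptiest was bin 1 at the left end, from position 1 to 1000000, with 36, 29 and 14. Bin 4, from 3000001 to 4000000, held 40, 32 and 13, and bin 2, from 1000001 to 2000000, held 42, 35 and 19. All 3 emptiest bins were thus in the left part of X and all 3 fullest in the right part. The remaining whole bins held between 43 and 58 combined regions. The last bin, 0.715 Mb long, held 36 combined regions, or 50.4 per Mb. Combined counts rose with bin number (Spearman's rho = 0.75 over 17 bins, with 0.51 in replicate 1 and 0.63 in replicate 2, given as a description since the lists share their libraries). Replicate 1 and replicate 2 counts followed each other over the 17 bins of X (Pearson's r = 0.85, Spearman's rho = 0.72).

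The right part of X was more densely bound than the left. With X divided into 3 equal parts of 5.90 Mb, the left part held 273 combined regions (46.2 per Mb), the centre 293 (49.6 per Mb) and the right part 354 (59.95 per Mb). The ratio of left to right was 0.77 (95% exact interval 0.66 to 0.91, two-sided exact binomial test, adjusted p = 0.00323). The left part also held fewer regions in replicate 1 (231 against 284) and in replicate 2 (105 against 143), with ratios of 0.81 and 0.73. Among regions that both replicates held the counts were 102, 109 and 135 from left to right. A denser right part was not particular to X. Left and right parts held 54.8 and 57.3 combined regions per Mb on I, 35.2 and 54.9 on II, and 59.9 and 71.7 on III. The left part was the denser on IV (57.7 and 44.5) and on V (39.8 and 34.0).

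Per Mb, X was less densely bound than the autosomes, and its centre stood below each autosomal centre. X carried 51.9 combined regions per Mb and the pooled autosomes 58.1, a ratio of 0.89 (0.83 to 0.96, exact binomial test, adjusted p = 0.00323). The single autosomes ran from 45.7 per Mb on V to 74.2 on III, and X was above V alone. Counted per gene the direction was the opposite. X held 33.7 combined regions for every 100 protein-coding genes and the pooled autosomes 27.8, with single autosomes from 19.1 on V to 38.7 on III and X below I and III. Gene numbers per chromosome are those of RefSeq on the assembly WBcel235, a build other than that of the regions, and this comparison was not tested. The ratio per Mb depended on chromosome III, without which it was 0.95 and no longer passed the threshold (adjusted p = 0.162, exact binomial test). In the replicate 2 list it was 0.91 and did not pass (adjusted p = 0.145, exact binomial test). The centre of X held 49.6 regions per Mb where autosomal centres together held 74.9, a ratio of 0.66 (0.58 to 0.75, exact binomial test, adjusted p = 3.93e-11), and each autosomal centre was above that of X, from 63.4 per Mb on V to 91.1 on III. In replicate 1 the ratio of centres was 0.64 and in replicate 2 it was 0.66. The outer parts of X held 53.1 regions per Mb and those of the autosomes 49.7, with single autosomes from 36.9 on V to 65.8 on III. The ratio of outer parts was 1.07 (0.98 to 1.16) and did not pass the threshold (exact binomial test, adjusted p = 0.162). With the central 50% of each chromosome as its centre, the outer ratio was 1.15 and passed it (adjusted p = 0.00841, exact binomial test).

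Although X had fewer regions per Mb, their bases covered as much of it. Combined regions covered 574 kb of X, or 3.24% of its called span, and 3.23% of the autosomes, where single chromosomes ran from 2.59% on V to 3.98% on III. The covered share was 2.57% on X and 2.60% on the autosomes in replicate 1, and 1.31% and 1.25% in replicate 2. In the whole bins of X the covered length ran from 19.9 kb in bin 1 to 44.1 kb in bin 14.

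X regions were wider than those of every autosome, in all 3 lists. The median width of combined regions was 484.5 bp on X (interquartile range 351 to 735.25 bp) and 430 bp on the autosomes (320 to 613 bp), whose single medians ran from 424 bp on II to 436.5 bp on I. In replicate 1 the medians were 471 and 421 bp, with single autosomes from 412.5 to 428 bp. In replicate 2 they were 485 and 412 bp, with single autosomes from 397 to 428 bp. Regions of 1000 bp or wider numbered 117 on X, 12.7% of its regions, beside 10.0% over all chromosomes and 9.53% on the autosomes (odds ratio 1.38, 95% interval 1.10 to 1.72, two-sided Fisher's exact test, adjusted p = 0.00537). No single autosome reached the X share, the highest being 10.3% on II. The odds ratio was 1.51 in replicate 1 (12.1% against 8.36%, adjusted p = 0.00269, Fisher's exact test). In replicate 2 the shares were 10.3% and 7.13%, with an interval of the odds ratio from 0.998 to 2.21, and the difference did not pass the threshold (adjusted p = 0.055, Fisher's exact test).

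**Figure D2:**
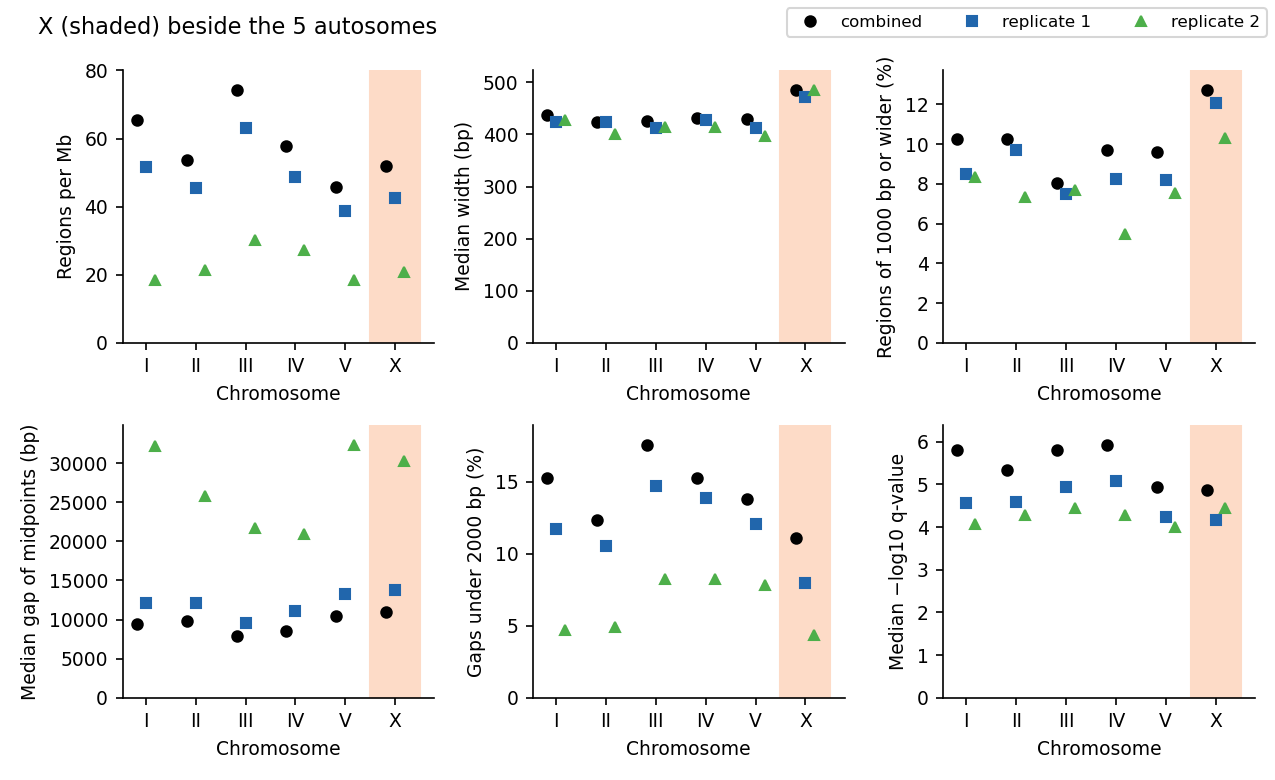
Each panel gives 1 quantity (vertical axis, units in its label) for the 6 chromosomes (horizontal axis) in the combined list and both replicate lists; points are single values without error bars. Median widths on X, from 471 to 485 bp, lie above all autosomal values in each list, and the share of gaps under 2000 bp lies below all of them.

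The difference in width was seen among regions of middle size. Widths of 500 to 999 bp made up 36.1% of X regions and 27.7% of autosomal regions, and widths of 1000 to 1999 bp made up 10.3% and 7.22%. Widths of 300 to 499 bp made up 33.2% and 40.6%, and widths of 50 to 299 bp made up 15.5% and 18.8%. Regions of 2000 bp or wider numbered 22 on X (2.39%) and 111 on the autosomes (2.32%), an odds ratio of 1.03 (0.62 to 1.65) that did not pass the threshold (Fisher's exact test, adjusted p = 0.905). At the narrow end 23 X regions (2.50%) and 160 autosomal regions (3.34%) were under 50 bp.

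The widest region of X ran from 12662710 to 12669277 (6568 bp). It was overlapped by 1 region of replicate 1 and by 3 of replicate 2. The next ran from 6740236 to 6745868 (5633 bp, 1 region in each replicate) and the third widest from 9548029 to 9553513 (5485 bp, 2 regions in each replicate). The last was also far weaker by q-value, ranking 138 on X where the others ranked 2 and 7. Very broad regions of X often adjoined each other. Of the 22 regions of 2000 bp or wider, 7 (31.8%) had another such region as their direct neighbour, and 12 of 111 (10.8%) did on the autosomes, where the share ran from 0% on IV and V to 28.6% on I. These shares were set side by side after the values were seen and were not tested. A row of 3 adjoining regions lay between 6736236 and 6750765: 3769, 5633 and 2082 bp wide, with 231 and 2815 bp between their edges, all held in both replicates. A pair of 3086 and 5162 bp lay from 4138535 to 4147101 with 319 bp between them, of which the left region overlapped neither replicate, and a pair of 2485 and 2893 bp lay from 11470236 to 11475826 with 213 bp between them. Whether such neighbours are separate sites or a single stretch divided by the caller was not tested.

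Along X the median width per whole bin ran from 425 bp in bins 11 and 17 to 598 bp in bin 8, and the autosomal bins ran from 249 to 545 bp. The left part of X had the widest combined regions by median (530 bp), followed by the centre (486 bp) and the right part (468.5 bp). The densest part of X thus had the narrowest regions. In replicate 2 the centre was wider than the left part (506 against 499 bp), as among regions held in both replicates (741 against 661.5 bp). The right part was the narrowest there too (476 and 573 bp). In the combined list the shares of regions of 1000 bp or wider were 13.6%, 14.7% and 10.5% from left to right. Bin 7, from 6000001 to 7000000, held 11 such regions, the most of any X bin, and bin 1 held 2.

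**Figure D3:**
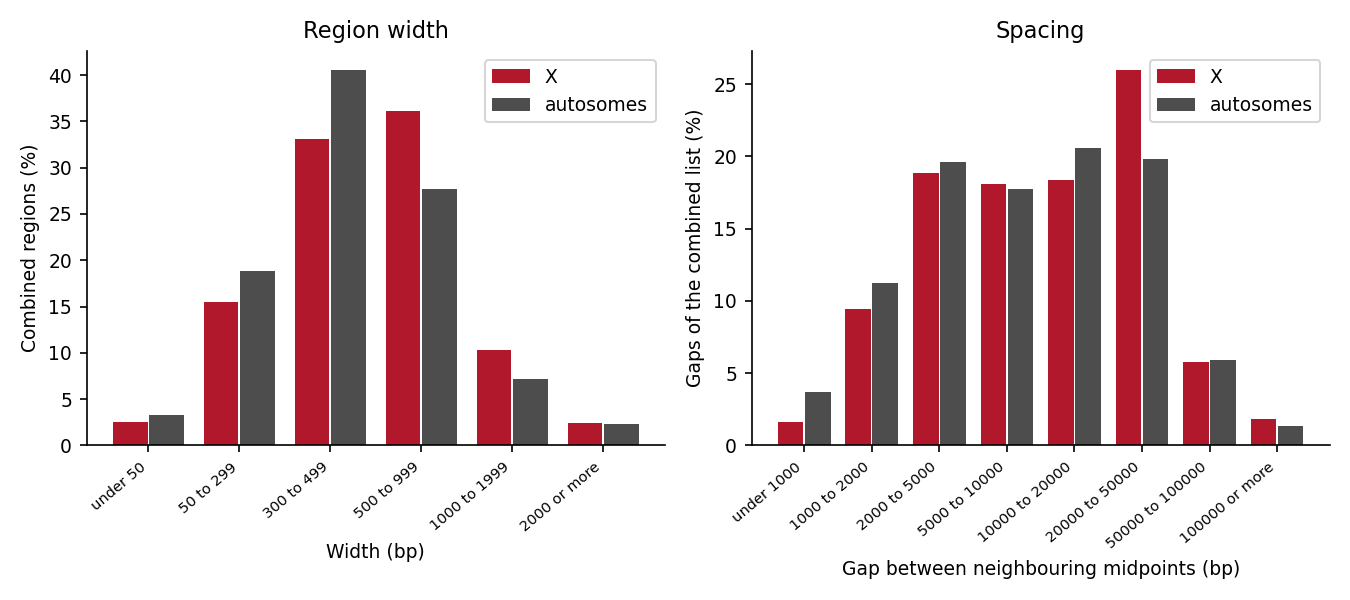
Share of combined regions by width class in bp (left) and share of gaps between neighbouring midpoints by length class in bp (right), for X and the pooled autosomes; bars are single percentages of 920 and 4793 regions and of 919 and 4788 gaps. X holds more of its regions at 500 to 1999 bp and fewer of its gaps under 2000 bp.

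Neighbouring regions were less often close together on X. The median distance between neighbouring midpoints was 10915 bp on X (interquartile range 4064 to 25986 bp) and 9261 bp on the autosomes (3243 to 21493 bp). No autosome reached the X median. The nearest was V with 10510 bp, and its upper quartile, 26884 bp, was above that of X. In replicate 2, where gaps are longer, the median was 30291 bp on X and 2 autosomes were higher, up to 32288 bp on V. Of 919 gaps on X 102 were under 2000 bp, or 11.1%, beside 14.3% over all chromosomes and 14.95% on the autosomes (odds ratio 0.71, 0.56 to 0.89, Fisher's exact test, adjusted p = 0.00323). On every autosome the share was higher, from 12.3% on II to 17.5% on III. In replicate 1 the shares were 7.98% and 12.7% (odds ratio 0.60, adjusted p = 0.000708, Fisher's exact test). In replicate 2 they were 4.36% and 7.04%, an odds ratio of 0.60 on 16 X gaps that did not pass the threshold (adjusted p = 0.087, Fisher's exact test). A lower density alone lengthens gaps, and its part in this contrast was not tested. Within bins that held 40 to 70 combined regions, among which densities can still differ, the share was 11.2% on X and 14.3% on the autosomes (odds ratio 0.76, adjusted p = 0.0462, Fisher's exact test). The contrast was greatest at the shortest range, where 15 X gaps (1.63%) and 178 autosomal gaps (3.72%) were under 1000 bp (odds ratio 0.43, 0.23 to 0.73, adjusted p = 0.00244, Fisher's exact test). A wide region keeps the midpoint of its neighbour farther away, and the part of width was not tested either. Measured from edge to edge, 16.2% of X gaps and 20.2% of autosomal gaps were under 2000 bp (odds ratio 0.76, adjusted p = 0.00649, Fisher's exact test).

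X regions thus mostly stood alone. With midpoints under 2000 bp apart counted as joined, 734 of the 920 (79.8%) had no close neighbour, and 73.2% of autosomal regions had none. There were 69 pairs and 13 runs of 3 on X, 1 run of 4 from 14499860 to 14506297, and 1 run of 5 from 12512415 to 12519133. The run of 4 had no member that both replicates held and the run of 5 had 1. The closest neighbours on X were 449 bp apart, a region from 15566556 to 15566931 and one of 8 bp from 15567189 to 15567196. The next were 586 bp apart, from 10846187 to 10846530 and from 10846868 to 10847021, and then 609 bp apart, from 15610270 to 15610894 and a 7 bp region from 15611188 to 15611194. None of these 6 regions was held in both replicates, and 2 of the pairs included a region of under 10 bp.

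The longest empty stretches of X were all in its left part. No combined region lay from 1627497 to 1856071 (229 kb), from 1128925 to 1302191 (173 kb) or from 147059 to 293237 (146 kb), and neither replicate had a region inside any of them. The first combined region of X began at 117183. Gaps of 50 kb or longer made up 7.62% of X gaps and 7.27% of autosomal gaps, and the longest autosomal gap between midpoints was 404 kb. The most strongly called region of X lay in the same bin as the longest of these empty stretches, bin 2.

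In replicate support no difference between X and the autosomes was detected. Of the 920 regions 346 were overlapped in both replicates, or 37.6% (95% Wilson interval 34.5 to 40.8%), beside 37.2% over all chromosomes and 37.1% on the autosomes (odds ratio 1.02, 0.88 to 1.18, Fisher's exact test, adjusted p = 0.794). On single autosomes it ran from 26.8% on I to 44.95% on IV. A further 366 X regions (39.8%) were overlapped in replicate 1 only, beside 41.9% over all chromosomes, and 9 (0.978%) in replicate 2 only, beside 0.788%. The 199 X regions found in neither replicate made up 21.6% (19.1 to 24.4%), beside 20.2% over all chromosomes. Of the X regions of replicate 1, 349 of 753 were found in replicate 2, or 46.3%, beside 45.2% over all chromosomes. By this share X was above 4 of the 5 autosomes. Of the X regions of replicate 2, 352 of 368 were found in replicate 1, or 95.7% (93.1 to 97.3%), beside 96.9% over all chromosomes. Each of the 5 autosomes had a higher share there, though V was nearly equal with 95.8%. Neither difference was tested.

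**Figure D4:**
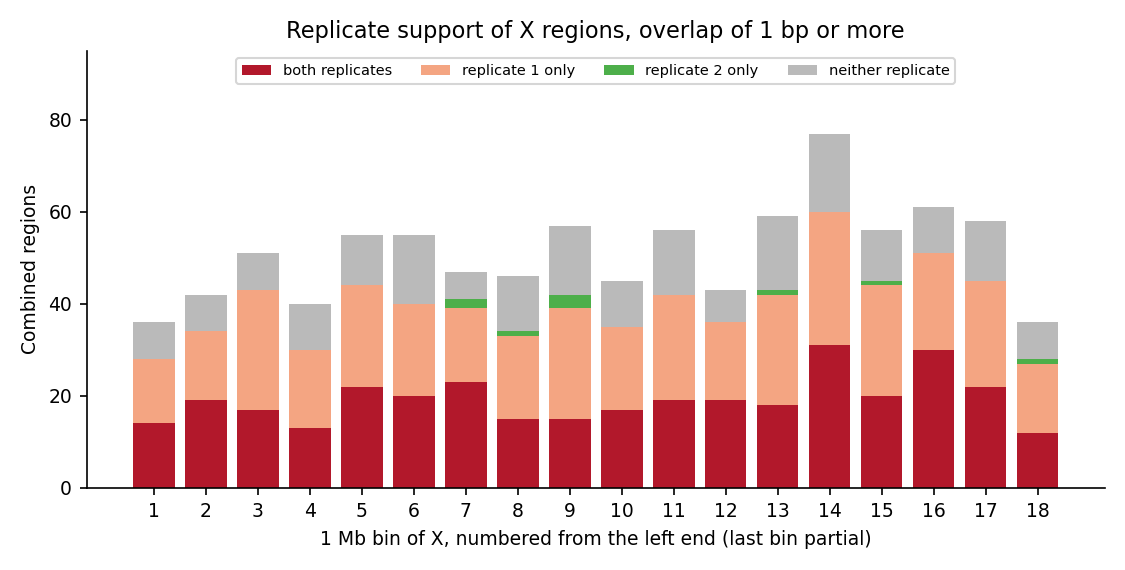
Combined regions (vertical axis, number) in each 1 Mb bin of X (horizontal axis), divided by whether a region of both replicates, of 1 replicate or of neither overlaps them by 1 bp or more. Regions in both replicates number from 13 to 31 in whole bins, and no bin lacks any of the classes other than replicate 2 only.

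Support was present along all of X. The share of regions in both replicates ran from 26.3% in bin 9 (15 of 57 regions) to 49.2% in bin 16 (30 of 61) and 48.9% in bin 7 (23 of 47), within the autosomal range of 12.9 to 57.7%. The 3 parts of X gave 37.4%, 37.2% and 38.1% from left to right, so the density of bound regions changed along X while the supported share did not follow it (Spearman's rho = -0.06 between count and supported share over 17 bins). Regions found in neither replicate were most frequent in bin 6 (27.3%) and least in bin 7 (12.8%). Bin 9 held 3 of the 9 regions found in replicate 2 only.

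Support followed strength and width on X, as it did on the autosomes. The combined and replicate lists share their libraries, so this relation is a description and no independent measure of agreement. X regions in both replicates had a median width of 653.5 bp and a median −log10 q of 15.3. Those in replicate 1 only had 414.5 bp and 4.13, and those in neither had 370 bp and 2.47. On the autosomes the median widths of the same classes were 548, 386 and 304 bp, each narrower than on X. None of the 23 X regions under 50 bp was held in both replicates, and none of the 160 on the autosomes was. From 50 to 299 bp it was 3 of 143 on X (2.10%) and 36 of 903 on the autosomes (3.99%). X also had the lower share from 300 to 499 bp (29.2% against 35.2%) and from 500 to 999 bp (51.8% against 54.9%). From 1000 to 1999 bp the shares were 65.3% on X and 67.3% on the autosomes. These differences by width class were not tested. Of the 22 X regions of 2000 bp or wider 20 were held in both (90.9%), as were 96 of 111 on the autosomes (86.5%). The exceptions on X were the region from 4138535 to 4141620 (neither) and one from 12175618 to 12177820 (replicate 1 only).

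The strength of X regions was uneven. In the stronger 50% of the combined list lay 413 X regions, 44.9% of those on X (41.7 to 48.1%). On the autosomes the share was 51.0% (odds ratio 0.78, 0.68 to 0.90, Fisher's exact test, adjusted p = 0.00286). No autosome had a lower share, but V was close to X with 45.8% (42.7 to 49.0%). The highest was IV with 53.6%. X held 22 of the 100 strongest regions (22.0%, Wilson interval 15.0 to 31.1%) and 12 of the 50 strongest (24.0%, 14.3 to 37.4%). Both intervals include the 16.1% that X held of all regions. Of the 10 strongest regions 1 was on X. The contrast seen in the stronger 50% depended on the limit. For the strongest 25% the odds ratio was 0.99 (adjusted p = 0.967, Fisher's exact test), and for the strongest 10% it was 1.21, with 11.5% of X regions and 9.72% of autosomal regions, and did not pass the threshold (adjusted p = 0.14, Fisher's exact test). X regions were scarcest in the fourth decile, which held 7.39% of them, and most frequent in the ninth, which held 12.7%. It did not pass the threshold in either replicate list. X regions made up 47.3% of their number in the stronger 50% of replicate 1 (odds ratio 0.88, adjusted p = 0.138, Fisher's exact test) and 51.4% in that of replicate 2, where the odds ratio turned to 1.07 (adjusted p = 0.695, Fisher's exact test).

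Within deciles of q-value X regions were wider by median. The difference in replicate support varied with the autosomes set beside X and with the overlap asked for. A like q-value is not shown to be equal binding, since the lists give no read counts. In each of the 10 deciles of combined q-value the median width was greater on X, from 703.5 against 686.5 bp in the strongest decile to 322 against 288.5 bp in the weakest, and the gap was widest in the third (698.5 against 505 bp). The odds ratio for regions of 1000 bp or wider was 1.48 within deciles (Mantel-Haenszel, 1.17 to 1.86, exact conditional test, adjusted p = 0.00234), a comparison added after the data were seen. The share in both replicates was higher on X in 7 deciles, lower in 1 and equal in 2. In the fifth decile 40 of 83 X regions (48.2%, 37.8 to 58.8%) and 126 of 489 autosomal regions (25.8%, 22.1 to 29.8%) were held in both. Within deciles the odds ratio for support was 1.67 (Mantel-Haenszel, 1.28 to 2.18, exact conditional test, adjusted p = 0.000636). Width was not held fixed there, and in each width class from 50 to 1999 bp the supported share was lower on X. Chromosome I had the lowest support of all. Without it the odds ratio was 1.19 (0.91 to 1.56) and did not pass the threshold (adjusted p = 0.209, exact conditional test, added after the data were seen). Under a 50% reciprocal overlap the odds ratio within deciles was 1.75 (adjusted p = 2.06e-05, exact conditional test) and, without chromosome I, 1.41 (1.10 to 1.80, adjusted p = 0.00639, exact conditional test), both also added then.

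**Figure D5:**
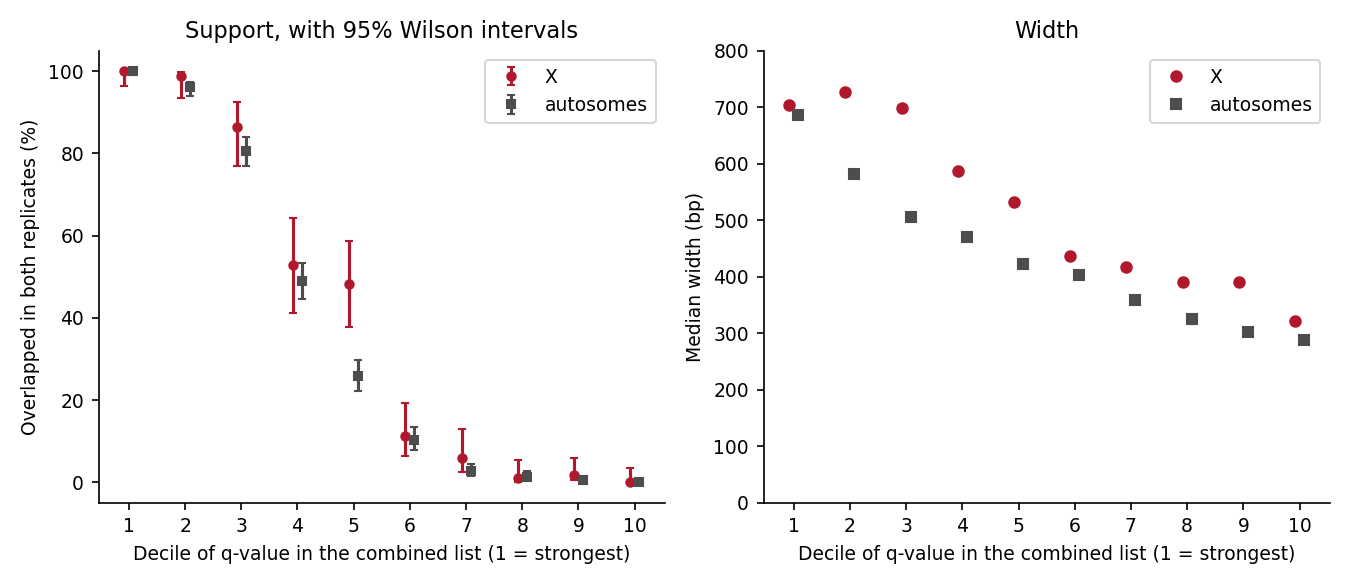
Share of combined regions overlapped in both replicates in percent (left, with 95% Wilson intervals) and median width in bp (right, no error drawn) by decile of q-value in the combined list, for X and the pooled autosomes. X lies above the autosomes in width in all 10 deciles, and its support stands clear of theirs in the fifth decile, 48.2% against 25.8%.

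The 10 strongest X regions held in both replicates were spread over 8 bins from bin 2 to bin 14. The first ran from 1503453 to 1505306 (1854 bp, q = 2.39e-179). It was well ahead of the second, the widest region of X, from 12662710 to 12669277 (q = 3.92e-103), which ranked 22 among all replicate 1 regions and, through its best overlapping region, only 541 in replicate 2. The other 8 were among the 50 strongest regions of each replicate list. A region from 2996438 to 2997501 (1064 bp) ranked 17 in replicate 1 and 23 in replicate 2. One from 11093735 to 11094429 (695 bp) ranked 13 and 17, and one from 6296111 to 6296944 (834 bp) ranked 20 and 25. The region from 8036050 to 8036933 (884 bp) ranked 25 and 19.

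Among the remaining 4, the broad region from 6740236 to 6745868 ranked 47 and 26. The region from 13700476 to 13701124 (649 bp) ranked 27 and 13, and lay in the fullest bin of X. The regions from 12362750 to 12363427 (678 bp) and from 10568047 to 10569216 (1170 bp) ranked 29 and 29, and 44 and 44. Of the 10, 5 were under 1000 bp wide.

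For the 338 X regions overlapped by exactly 1 region of each replicate, the midpoints of the replicate regions were a median of 35.5 bp apart, and 90% were within 156 bp. The same values were 27.5 and 132 bp for 1722 autosomal regions. Regions chosen for overlap must lie near each other, so these distances are a description and no measure of agreement. The median width was 600 bp in replicate 1 and 483.5 bp in replicate 2, and the replicate 1 region was the wider in 288 of the 338. The combined region was wider than both in 269. Replicate 1 regions covered 77.2% of the combined bases on X and replicate 2 regions 39.4%, with 77.7% and 36.9% on the autosomes.

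Some X regions of the replicates had no counterpart in the combined list. They were 36 of replicate 1 (4.78%, beside 3.94% over all chromosomes) and 7 of replicate 2 (1.90%, beside 1.38%). None of the X regions was found in the other replicate, where 7 of 151 such autosomal regions of replicate 1 and 10 of 24 of replicate 2 were. Those of replicate 1 were narrow, with a median of 89.5 bp and 13 under 50 bp. Those of replicate 2 included its strongest region of the whole genome, on X from 16929264 to 16932047 (2784 bp, q = 6.81e-153), which neither replicate 1 nor the combined list held. A second such region, from 16932309 to 16932558 (250 bp, q = 0.000105), lay beside it. The other 5 had q-values from 0.00116 to 0.00987.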

How the data were processed

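The authors deposited 3 lists of regions, per the file headers called with PeakSeq on WormBase WS220: 1 for each HAM-1 ChIP replicate and 1 combined. Positions are 1-based and were moved from an earlier build, per the file headers; comments there mark 1 combined X region as changed in that step. The deposited q-value (all under 0.01) is the only value per region. Aligner, settings, use of the inputs and the way of combining are not stated in the sources used here. No genome or annotation of WS220 was used, so no sequence, gene or promoter is described.

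From the lists, widths, midpoint gaps and overlaps (1 bp or more) were computed with Python 3.11.15, numpy 2.4.6, pandas 2.3.3, scipy 1.17.1 and statsmodels 0.14.6. Bins and parts were assigned by midpoint. Chromosome lengths were taken as the farthest end of any region in the 3 lists. Densities were compared by exact conditional binomial tests, shares by Fisher's exact test, and shares within deciles by Mantel-Haenszel odds ratios with an exact conditional test, all two-sided. Code was tested on simulated data. Intervals are 95% and cover counting error only.

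Members and tests were chosen with earlier results of these data known. The 10 strongest X regions in both replicates, the 3 widest, the 3 closest pairs, the 3 longest empty stretches and the 3 fullest and emptiest bins are named by rule; other single regions were chosen after their values were seen. Alternatives were other lists, limits and comparators.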

Additional observations from a re-analysis of the deposited data

How the results depend on the processing

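Of 67 recomputed values of the 8 tested results, 48 stayed on their side of the threshold in the same direction, 9 no longer passed it, 5 newly passed it and 5 reversed; 5 of the 67 were added after seeing the data. The ratio of central densities and that of left to right passed the threshold under all 6 alternatives run on each, from 0.55 to 0.73 and from 0.73 to 0.84. The X density ratio was 0.91 in regions held in both replicates and 0.95 without chromosome III, no longer past the threshold, and over the replicate lists it ranged from 0.88 to 0.91. The outer ratio reversed to 0.98 in the stronger 50% of regions and passed the threshold at 1.15 with the central 50% as centre. The odds ratio for support in both replicates reversed to 0.91 without chromosome I. Counting 1 replicate at a time, it ranged from 0.89 (reversed) to 1.03. It passed the threshold at 1.67 within deciles and at 1.64 in the stronger 50%. Within deciles under a 50% reciprocal overlap it passed at 1.75 (1.41 when also without chromosome I). The odds ratio for the broad share was 1.03 at 2000 bp, no longer past the threshold. Over the replicate lists it was 1.4996 to 1.51 and did not pass in replicate 2. The odds ratio for close spacing was 0.64 (0.29 to 1.26) in regions held in both replicates, on 10 X gaps, and did not pass the threshold. Over the replicate lists it was 0.596 to 0.602 and did not pass in replicate 2. The odds ratio for strong regions was 0.99 for the strongest 25% and reversed to 1.21 for the strongest 10%. It ranged from 0.88 to 1.07 (reversed) over the replicate lists. The smaller lists hold fewer regions, and the causes of these changes were not tested. Bins shifted by 0.5 Mb gave 37 to 69 regions with a median of 51, against 36 to 77 and 55. No paired analysis was possible because there is no region list for either input here. A region not called in replicate 2 is not shown to be unbound, since depth is unknown.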
